A study of Drosophila melanogaster with 12 samples.

Results

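Transcripts of 35 genes, out of 15682 genes counted, were nearly lost in glial nuclei of both *nonstop* and *sgf11* larvae of *Drosophila melanogaster*. These genes were chosen by their levels in CPM (the counts of a gene per 1000000 gene counts of its library). A gene was taken where its mean was at least 2 CPM over the 4 wild-type libraries and its mean in *nonstop* and in *sgf11* was each at most 0.2 of the wild-type mean. Of the 8343 genes with that wild-type mean, 40 met both thresholds, and *Blimp-1*, *NLaz*, *Spn43Aa*, *ImpE2* and *Cpr49Ac* were left out by name. The comparison of either mutant with wild type therefore chose these genes, and the levels in these groups are given as a description, with no test.

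The study sequenced nuclear RNA of glial nuclei that were affinity enriched from eye-brain complexes dissected and pooled at the wandering stage of the third instar, with 4 libraries for each of 3 genotypes. In all genotypes the glial driver *repo-GAL4* expressed *UAS-GFP-Msp300KASH* from the attP2 site, which puts GFP on the nuclear membrane. *nonstop* larvae were homozygous for the P-element insertion *not02069* with *ry506*, *sgf11* larvae were homozygous for the PBac insertion *CG13379e01308*, and wild-type larvae carried the driver and the reporter over the balancer *TM3*, *Sb1* of chromosome 3. Each mutant is a single allele, so the allele, the chromosome that carries it and the balancer of wild type cannot be told apart in any comparison with wild type. Homozygotes of either mutation do not reach adulthood.

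Nonstop is the ubiquitin protease, and Sgf11 a partner subunit, of the deubiquitinase module of SAGA, a coactivator complex that removes ubiquitin from histone H2B on transcribed genes. Wandering larvae are near the pulse of the steroid ecdysone that starts metamorphosis. In this pulse the ecdysone receptor induces early regulators, and nuclear receptors such as Hr3 follow. Tissues such as fat body and salivary gland express late larval genes of their own, not all of them induced by this pulse. The 35 genes hold members of several of these classes, beside transporters, peptidases, a Polycomb group gene and 17 genes known by a CG number alone.

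The libraries held 6913032 to 11459317 counts of genes, so that a level of 1 CPM rests on about 6.91 counts in the shallowest library. The transcript of *not* averaged 9.35 ± 0.969 CPM in *nonstop* against 27.9 ± 1.23 CPM in wild type (SD, n = 4 libraries each), and *Sgf11* had 2 counts in all over the 4 *sgf11* libraries against 189 counts in wild type. The glial transcription factor gene *repo* was present in every library and averaged 115.4 ± 16.5 CPM in *nonstop*, 125 ± 8.37 CPM in *sgf11* and 154 ± 7.91 CPM in wild type (SD, n = 4 libraries each). The study describes the libraries of a genotype as biological replicates, each with nuclei enriched from its own dissected complexes. Separate cultures are not stated, and the spread between the libraries may be partly technical.

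The genes spanned a wide range of abundance. In wild type, 3 of them averaged over 100 CPM, 12 averaged 10 to 100 CPM and 20 averaged under 10 CPM. The median gene was left at 7.08% of its wild-type mean in *nonstop* and at 12.1% in *sgf11*, while the 8343 genes with the same wild-type minimum had medians of 85.9% in *nonstop* and 91.8% in *sgf11*. At most 10% was left in both mutants for 10 of the 35 genes. In 30 of the 35, all 8 mutant libraries lay below all 4 wild-type libraries, which held for 16.9% of all genes tested. That count follows from the way the genes were chosen and nothing is read from it. The same holds for the calls of the fit across all genes, in which 32 of the 35 genes were tested. Of these, 32 were called lower than wild type in *nonstop*, against 17.0% of all genes tested, and 30 in *sgf11*, against 14.1%, while 18.7% of all genes were called higher in *nonstop* and 16.4% in *sgf11*. Nuclear RNA was measured in bulk, so fewer cells of one type and less RNA per cell cannot be told apart.

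Just inside the threshold lay *NT1* at 19.9%, *Spn100A* at 19.4%, *Eig71Ee* at 19.2%, *CG34409* at 19.1% and *Fbp1* at 18.9% of the wild-type mean, taking the mutant with more left. Just outside lay *CG17036* at 20.5%, *E(spl)m2-BFM* at 20.7%, *lncRNA:CR43905* at 20.7%, *Cyp12c1* at 20.8% and *Eip78C* at 20.8%. The boundary is thus set within a continuous range of values.

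**Figure D1:**
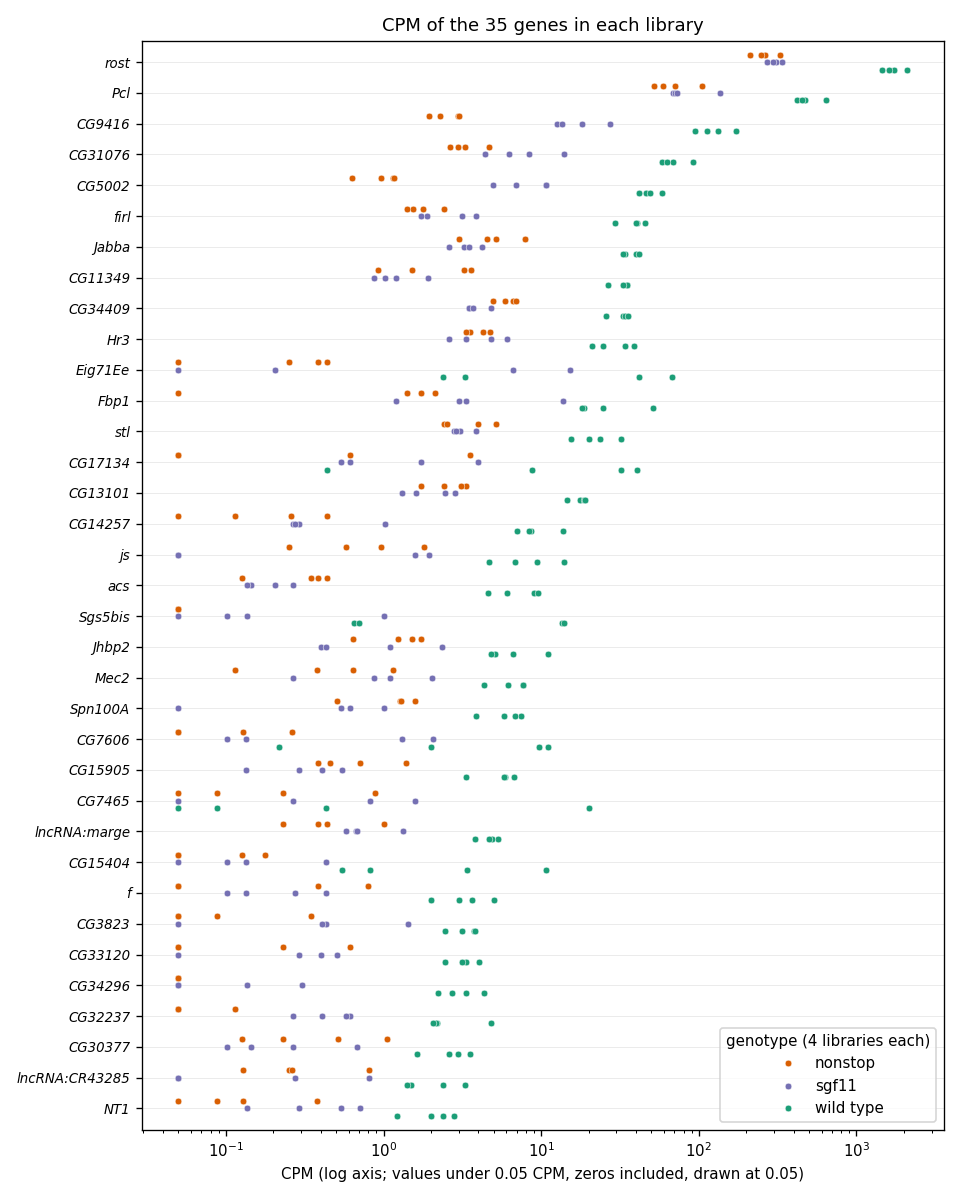
CPM of each of the 35 genes (rows, in order of the wild-type mean) in every library, on a log axis, with 4 points each for *nonstop* (orange), *sgf11* (purple) and wild type (green). Points under 0.05 CPM, zeros included, are drawn at 0.05. In 30 rows the green points all lie to the right of the others, and *Eig71Ee*, *CG17134*, *Sgs5bis*, *CG7606* and *CG7465* are the rows where they do not.

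The most abundant of these genes were far from absent in the mutants. *rolling stone* (*rost*, FBgn0011705), which encodes a transmembrane protein known from the fusion of embryonic myoblasts, had 261, 326, 211 and 249 CPM in *nonstop*, 335, 269, 308 and 296 CPM in *sgf11*, against 2102, 1718, 1444 and 1612 CPM in wild type. *rost* was left at 15.2% in *nonstop* and 17.6% in *sgf11*, and even so its mean level exceeded that of 96.3% of the genes tested in *nonstop* and 96.6% in *sgf11*. *Polycomblike* (*Pcl*, FBgn0003044), which encodes a partner of the histone H3 lysine 27 methyltransferase complex, had 104, 70.1, 59.4 and 52.3 CPM in *nonstop*, 137, 68.8, 70.2 and 72.5 CPM in *sgf11*, against 641, 474, 422 and 451 CPM in wild type. All mutant libraries were below all wild-type libraries for both genes, and *sgf11* replicate 1 was the highest mutant library for *Pcl*. "Nearly lost" describes the fraction left of these genes, not their level.

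*Pcl* retained a mean above that of 84.7% of the genes tested in *nonstop* and 86.5% in *sgf11*. Per kilobase of exon, *rost* averaged 157 in *nonstop* and 181 in *sgf11* against 1029 in wild type (CPM per kilobase). By this measure, in CPM per kilobase of exon, *Pcl* averaged 16.3 in *nonstop* and 19.9 in *sgf11* against 113 in wild type.

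Hormone-related genes formed one group. *Hr3* (FBgn0000448), an ecdysone-induced nuclear receptor that turns down early regulators and activates *ftz-f1*, had 3.56, 3.35, 4.30 and 4.75 CPM in *nonstop*, 6.11, 3.34, 2.60 and 4.78 CPM in *sgf11*, against 20.9, 34.0, 38.9 and 24.8 CPM in wild type. *Fbp1* (FBgn0000639), which encodes the receptor by which fat body cells take up larval serum protein from the hemolymph, had 1.72, 1.42, 0 and 2.11 CPM in *nonstop*, 13.7, 1.20, 3.33 and 3.002 CPM in *sgf11*, against 51.0, 18.6, 24.7 and 18.2 CPM in wild type. For *Fbp1* the highest libraries were wild-type replicate 1 and, among the mutants, *sgf11* replicate 1. *Jhbp2* (FBgn0250839), which belongs to a family named for binding of juvenile hormone in hemolymph, had 1.72, 0.644, 1.52 and 1.23 CPM in *nonstop*, 2.34, 0.401, 0.434 and 1.09 CPM in *sgf11*, against 5.06, 6.58, 11.01 and 4.80 CPM in wild type. For each of these 3 genes the highest mutant library was below the lowest wild-type library.

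Exons of *Hr3* overlap those of 3 other annotated genes, so part of its reads could be ambiguous. *Eig71Ee* (FBgn0004592), an ecdysone-induced gene of late larval salivary glands, had 0, 0.386, 0.253 and 0.440 CPM in *nonstop*, 0.204, 0, 6.65 and 15.1 CPM in *sgf11*, against 42.0, 67.1, 2.40 and 3.28 CPM in wild type. For *Eig71Ee* the groups overlapped, since *sgf11* replicates 3 and 4 exceeded wild-type replicates 3 and 4, and only wild-type replicates 1 and 2 were high.

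Glue proteins are made by the larval salivary gland and fix the pupal case to its substrate. *Sgs5bis* (FBgn0038523), a paralogue of the glue gene *Sgs5*, had 0, 0, 0 and 0 CPM in *nonstop*, 0.102, 0, 1.01 and 0.136 CPM in *sgf11*, against 13.5, 13.9, 0.654 and 0.703 CPM in wild type. With no count in *nonstop*, its level on pooled counts was at least 91.8-fold lower there than in wild type, taking 3 counts over its 4 libraries as the floor. This bound covers counting error only, while the wild-type libraries ran from 0.654 to 13.9 CPM. *CG7606* (FBgn0040565), which lies on the other side of *Sgs5*, had 0, 0.129, 0 and 0.264 CPM in *nonstop*, 0.102, 0.134, 1.30 and 2.05 CPM in *sgf11*, against 9.69, 11.1, 0.218 and 1.99 CPM in wild type. *CG15404* (FBgn0031512), on another chromosome, had 0, 0, 0.126 and 0.176 CPM in *nonstop*, 0.102, 0.134, 0.434 and 0 CPM in *sgf11*, against 3.40, 10.7, 0.545 and 0.820 CPM in wild type. *CG15404* had 3 counts in *nonstop* and 150 in wild type, a ratio of 46.5 (95% exact counting interval 15.6 to 228). The interval covers counting error on pooled counts and not the spread of the wild-type libraries, from 0.545 to 10.7 CPM. It also takes no account of the choice of the gene by this same contrast.

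Wild-type replicates 1 and 2 were the high libraries for all 3 of these genes, as they were for *Eig71Ee*. The summed level of 6 glue genes, none of them among the 35, was 10.6, 10.4, 12.9 and 15.1 CPM in *nonstop*, 11.2, 6.55, 97.5 and 49.0 CPM in *sgf11* and 197, 236, 10.1 and 22.5 CPM in wild type. The summed glue level thus stood high in the same pair of wild-type libraries, and next highest in *sgf11* replicates 3 and 4. *Sgs1* did not follow the sum, with 2.53, 10.1, 0.872 and 10.8 CPM in wild type. Its highest mutant library was *nonstop* replicate 1 with 2.75 CPM. Over a wider list of 7 salivary gland genes (*Sgs1*, *Sgs3*, *Sgs4*, *Sgs5*, *Sgs7*, *Sgs8* and *fkh*), the summed level ranged from 16.5 to 21.9 CPM in *nonstop*, from 11.1 to 103 CPM in *sgf11* and from 19.0 to 245 CPM in wild type. *Sgs5* was at 0 in *nonstop* replicates 1 and 2 and in *sgf11* replicate 2, and *Sgs7* in *sgf11* replicate 2. The part of salivary gland RNA in the levels of *Eig71Ee*, *Sgs5bis*, *CG7606* and *CG15404* was not tested. Chosen again without wild-type replicates 1 and 2, 29 of the 35 genes remained, and *CG15404*, *CG3823*, *CG7606*, *Eig71Ee*, *Fbp1* and *Sgs5bis* dropped out.

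**Figure D2:**
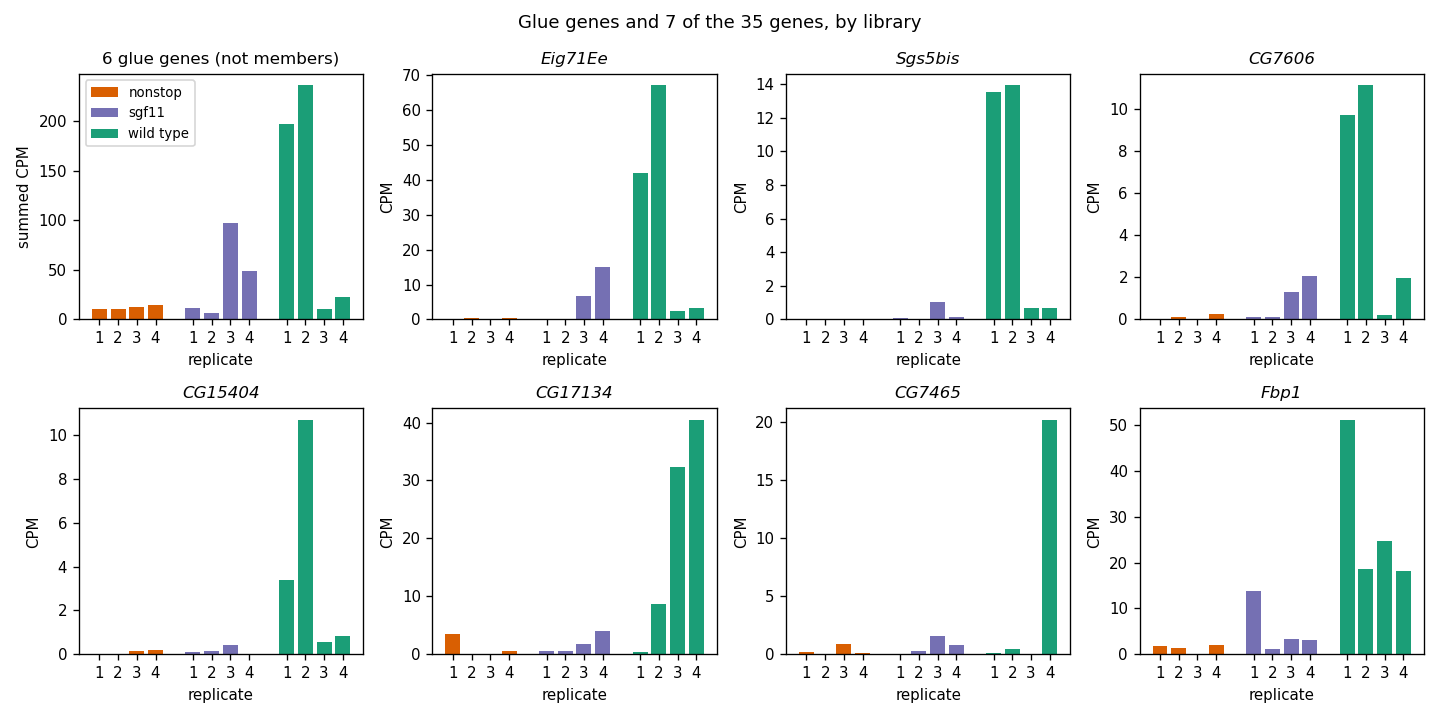
Summed CPM of 6 glue genes (first panel) and CPM of 7 of the 35 genes, by replicate, for *nonstop* (orange), *sgf11* (purple) and wild type (green). Each bar is 1 library. Wild-type replicates 1 and 2 are high for the sum of the glue genes, *Eig71Ee*, *Sgs5bis*, *CG7606* and *CG15404*. Wild-type replicates 3 and 4 are high for *CG17134*, and wild-type replicate 4 alone for *CG7465*.

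Several genes encode peptidases, their inhibitors or other enzymes. *CG9416* (FBgn0034438), a predicted M28 metallopeptidase, had 1.95, 2.96, 2.28 and 2.99 CPM in *nonstop*, 27.2, 18.1, 12.6 and 13.6 CPM in *sgf11*, against 94.3, 132, 173 and 113 CPM in wild type. It was left at 1.99% of wild type in *nonstop* and 13.9% in *sgf11*. *CG34409* (FBgn0085438), a predicted serine protease, had 6.66, 6.96, 4.93 and 5.90 CPM in *nonstop*, 3.46, 4.82, 3.47 and 3.68 CPM in *sgf11*, against 32.9, 33.8, 25.7 and 35.6 CPM in wild type. The order of the mutants was the other way round here, with more left in *nonstop*. *Spn100A* (FBgn0039795), a serpin, had 1.26, 1.29, 0.506 and 1.58 CPM in *nonstop*, 0.611, 0.535, 1.01 and 0 CPM in *sgf11*, against 3.84, 5.83, 7.41 and 6.79 CPM in wild type. No mutant library of *Spn100A* reached the lowest wild-type library.

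*stall* (*stl*, FBgn0086408), which encodes an ADAMTS-like protein known from ovarian follicle formation, had 2.41, 5.15, 2.53 and 3.96 CPM in *nonstop*, 3.87, 2.81, 3.04 and 2.87 CPM in *sgf11*, against 15.4, 19.96, 32.2 and 23.5 CPM in wild type. *firl* (FBgn0032405), which encodes a predicted dehydrogenase, had 2.41, 1.55, 1.77 and 1.41 CPM in *nonstop*, 3.87, 1.87, 1.74 and 3.14 CPM in *sgf11*, against 45.3, 40.8, 40.1 and 29.4 CPM in wild type. Both genes kept their mutant and wild-type libraries apart. *CG17134* (FBgn0032304), a predicted aspartic peptidase, had 3.56, 0, 0 and 0.616 CPM in *nonstop*, 0.611, 0.535, 1.74 and 3.96 CPM in *sgf11*, against 0.436, 8.74, 32.3 and 40.4 CPM in wild type. Its wild-type libraries differed widely, and replicate 1 of wild type lay below most mutant libraries.

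A further group is known from transport and lipids. *CG5002* (FBgn0034275), of the SLC26 family of anion transporters, had 1.15, 1.16, 0.632 and 0.968 CPM in *nonstop*, 10.7, 10.7, 6.94 and 4.91 CPM in *sgf11*, against 58.5, 46.0, 41.8 and 49.3 CPM in wild type. It was left at 2.0% of wild type in *nonstop* and 17.0% in *sgf11*. *arcus* (*acs*, FBgn0035300), of the proton-assisted amino acid transporters, had 0.344, 0.386, 0.126 and 0.440 CPM in *nonstop*, 0.204, 0.268, 0.145 and 0.136 CPM in *sgf11*, against 4.63, 9.06, 9.59 and 6.09 CPM in wild type. *acs* was among the lowest in both mutants, at 4.42% in *nonstop* and 2.56% in *sgf11*. *Jabba* (FBgn0259682), whose protein coats lipid droplets and anchors histones on them in embryos, had 5.17, 7.86, 4.55 and 2.99 CPM in *nonstop*, 3.26, 3.48, 2.60 and 4.23 CPM in *sgf11*, against 39.8, 41.8, 34.2 and 32.9 CPM in wild type. *Mec2* (FBgn0030993), of the stomatin and podocin family of membrane proteins, had 0.115, 0.644, 0.379 and 1.14 CPM in *nonstop*, 2.04, 0.268, 0.868 and 1.09 CPM in *sgf11*, against 4.36, 6.15, 7.63 and 7.61 CPM in wild type. In all 4 of these genes the mutant libraries lay below every wild-type library.

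Genes with no function given here made up much of the rest. *CG31076* (FBgn0051076) had 2.98, 4.64, 3.29 and 2.64 CPM in *nonstop*, 14.0, 4.41, 8.39 and 6.28 CPM in *sgf11*, against 91.8, 68.3, 58.3 and 62.7 CPM in wild type. *CG11349* (FBgn0035550) had 0.918, 3.61, 1.52 and 3.26 CPM in *nonstop*, 1.02, 1.20, 0.868 and 1.91 CPM in *sgf11*, against 34.9, 34.96, 26.5 and 33.0 CPM in wild type. These were abundant in every wild-type library, and *CG11349* had less left in *sgf11* than in *nonstop*. *CG13101* (FBgn0032084), a neighbour of *rost*, had 1.72, 3.35, 2.40 and 3.08 CPM in *nonstop*, 2.85, 1.61, 1.30 and 2.46 CPM in *sgf11*, against 17.6, 18.8, 14.6 and 19.1 CPM in wild type. *CG14257* (FBgn0039479) had 0.115, 0.258, 0 and 0.440 CPM in *nonstop*, 1.02, 0.268, 0.289 and 0.273 CPM in *sgf11*, against 8.64, 8.31, 13.7 and 7.03 CPM in wild type. *CG13101* varied little among wild-type libraries, with a coefficient of variation (CV, the SD as a percent of the mean) of 11.7%, and *CG14257* varied more, with 31.3%. *js* (FBgn0038422) had 0.574, 1.80, 0.253 and 0.968 CPM in *nonstop*, 1.93, 0, 1.59 and 0 CPM in *sgf11*, against 6.81, 13.9, 9.38 and 4.69 CPM in wild type. *CG15905* (FBgn0034462) had 0.459, 0.386, 1.39 and 0.704 CPM in *nonstop*, 0.407, 0.134, 0.289 and 0.546 CPM in *sgf11*, against 3.32, 5.94, 5.78 and 6.68 CPM in wild type. Wild type exceeded all mutant libraries in these as well.

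*CG34296* (FBgn0085325) had 0, 0, 0 and 0 CPM in *nonstop*, 0.305, 0, 0 and 0.136 CPM in *sgf11*, against 3.32, 4.32, 2.73 and 2.23 CPM in wild type. It had no count in *nonstop* and was at least 37.8-fold lower there than in wild type, by the same floor. *CG7465* (FBgn0035551), the neighbour of *CG11349*, had 0.230, 0, 0.885 and 0.0880 CPM in *nonstop*, 0, 0.268, 1.59 and 0.819 CPM in *sgf11*, against 0.0873, 0.432, 0 and 20.15 CPM in wild type. Its wild-type mean rested on replicate 4 alone, and without that library *CG7465* would not have been chosen.

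The remaining 8 genes averaged 2.10 to 4.67 CPM in wild type. They are *lncRNA:marge*, *lncRNA:CR43285*, *f* (*forked*, whose protein bundles actin in bristles), *NT1* (a neurotrophin of the Spätzle family), *CG3823*, *CG33120*, *CG32237* and *CG30377*. Their means ranged from 0.0287 CPM (*CG32237*) to 0.517 CPM (*lncRNA:marge*) in *nonstop*, and from 0.236 CPM (*f*) to 0.813 CPM (*lncRNA:marge*) in *sgf11*. At these levels a mutant library held few counts. *CG32237* had 1 count over the 4 *nonstop* libraries against 105 in wild type, a ratio of 97.6 (95% exact counting interval 17.1 to 3893). This interval too leaves out the spread between libraries and the choice of the gene by this contrast. All mutant libraries of these 8 genes lay below their wild-type libraries.

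How much a gene varied among the wild-type libraries was not itself a threshold of the choice. A mean over 4 libraries can be carried by 1 or 2 of them, however, and some genes were chosen through such libraries. The spread is therefore not independent of the choice and is given as a description. The median CV over the wild-type libraries was 28.6% for the 35 genes, against 15.2% for the 8343 genes with the same wild-type minimum. A CV over 50% was found for 7 of the 35 genes and for 1.34% of those 8343 genes. The highest wild-type library exceeded the lowest over 5-fold in 6 of the 35 (*Eig71Ee*, *CG17134*, *Sgs5bis*, *CG7606*, *CG7465* and *CG15404*) and in 0.491% of the 8343. At the other end, *Jabba* had a CV of 11.48%, *CG13101* of 11.7%, *CG11349* of 12.4%, *CG34409* and *lncRNA:marge* of 13.5% each and *CG5002* of 14.5%. Since 20 of the 35 genes averaged under 10 CPM, counting error adds to these CVs, and its part was not tested.

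The difference between the mutants was not used to choose the genes, and it was tested in a fit over all 9966 genes with over 1 CPM in at least 4 libraries, by edgeR's quasi-likelihood test with Benjamini-Hochberg adjustment. The test included 32 of the 35 genes, while *Sgs5bis*, *CG7465* and *CG15404* did not pass that filter. Of the 32, 17 passed it only with the help of wild-type libraries, since fewer than 4 of their mutant libraries were over 1 CPM, and 7 of these (*acs*, *f*, *CG33120*, *CG34296*, *CG32237*, *lncRNA:CR43285* and *NT1*) were over 1 CPM in no mutant library. The comparison of the mutants rests on few counts for these genes, and the number called is not read as a share of the 35. At a false discovery rate (FDR) under 0.01, 2 of the 32 differed, both lower in *nonstop* than in *sgf11*. Over all genes tested, 2.11% differed between the mutants in either direction with 1.28% lower and 0.823% higher in *nonstop*. *CG9416* averaged 2.55 ± 0.517 CPM in *nonstop* and 17.9 ± 6.64 CPM in *sgf11* (SD, n = 4 libraries each), which is -2.74 on the log2 scale with an SE of 0.256 (edgeR's quasi-likelihood test, FDR = 2.09e-06). *CG5002* averaged 0.977 ± 0.246 CPM in *nonstop* and 8.31 ± 2.87 CPM in *sgf11* (SD, n = 4 libraries each), which is -3.02 on the log2 scale with an SE of 0.322 (the same edgeR test, FDR = 1.05e-05). The 4 *nonstop* libraries lay below the 4 *sgf11* libraries for both genes. Exons of *CG9416* overlap those of *CG10051* on the other strand. With counting in union mode that ignores strand, reads of the shared part could be ambiguous and counted for neither gene.

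For the other 30 genes tested, those of very low level in the mutants among them, a difference between the mutants did not pass the threshold. *CG31076* came closest with -1.24 on the log2 scale (SE 0.309, edgeR FDR = 0.0272), with *nonstop* libraries at 2.64 to 4.64 CPM and *sgf11* libraries at 4.41 to 14.0 CPM, which overlap. It did pass the same threshold in 3 alternatives, with DESeq2, with edgeR's exact test and without the filter on low counts. *CG32237* followed with -3.47 (SE 0.891, edgeR FDR = 0.0338), which rests on 1 count in *nonstop*. *CG34409* came next, with 0.73 in the other direction (SE 0.211, edgeR FDR = 0.0624). The abundant genes had narrow errors, with log2 fold changes of -0.13 (SE 0.158) for *rost*, -0.19 (SE 0.234) for *Pcl* and -0.01 (SE 0.245) for *Hr3*. Both mutants were compared with the same wild-type libraries, so the 2 sets of values relative to wild type are not independent.

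**Figure D3:**
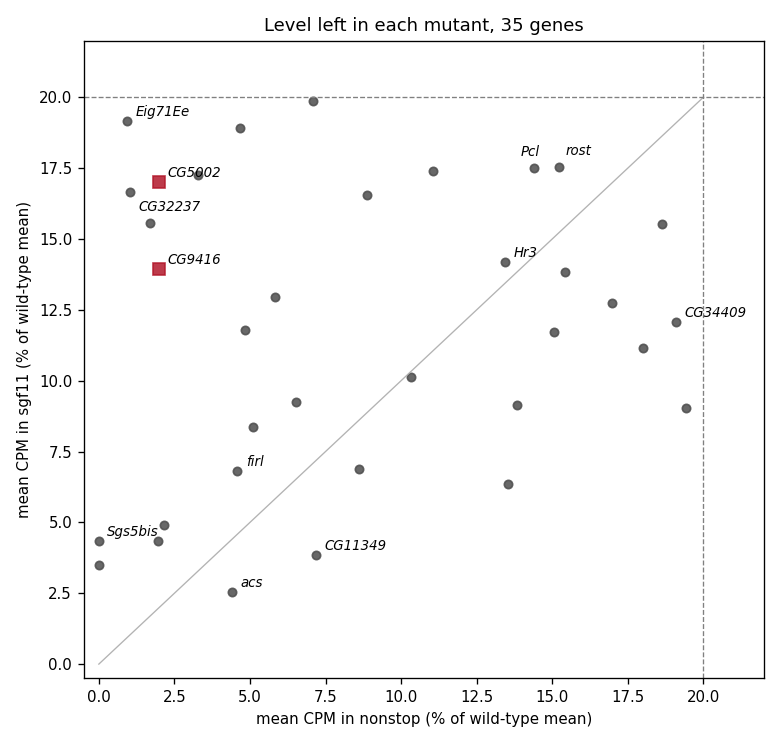
Mean CPM of each of the 35 genes in *nonstop* (x axis) and in *sgf11* (y axis), each as a percent of the wild-type mean. Red squares mark *CG9416* and *CG5002*, which differed between the mutants at an FDR under 0.01 and lie at 1.99% and 2.0% on the *nonstop* axis. The dashed lines mark the limit of 20% that chose the genes, and the grey line marks equal levels.

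**Figure D4:**
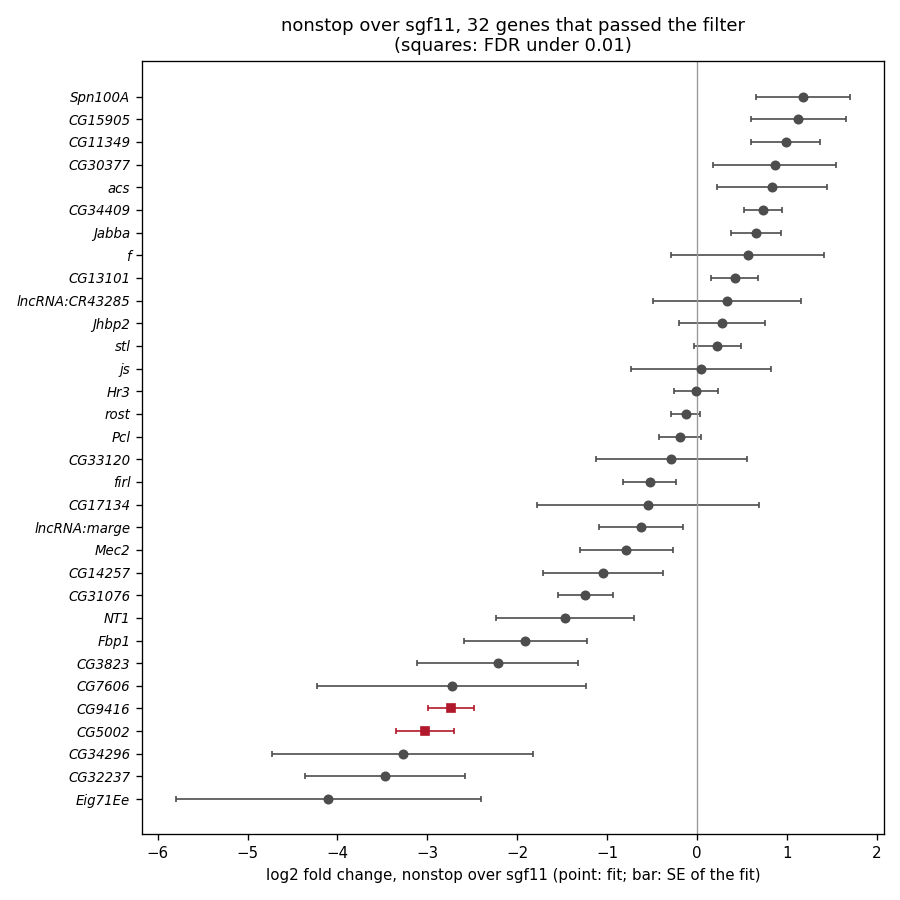
Log2 fold change of *nonstop* over *sgf11* from the fit, with its SE, for the 32 genes that passed the filter on low counts. Negative values are lower in *nonstop*. *CG9416* (-2.74) and *CG5002* (-3.02) are the red squares, and genes with larger values such as *Eig71Ee* have wide errors.

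The genes were spread over the genome. By arm of the BDGP6 annotation, 3 of the 35 lay on X, 6 on 2L, 8 on 2R, 8 on 3L, 10 on 3R and none on 4. Chromosome 3, which carries both mutations and the balancer, held 51.4% of the 35 genes and 44.0% of the genes with the same wild-type minimum that the annotation places. The X chromosome held 8.57% of the 35 and 17.3% of those genes. A few genes more or less move these shares, which are given as a description.

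**Figure D5:**
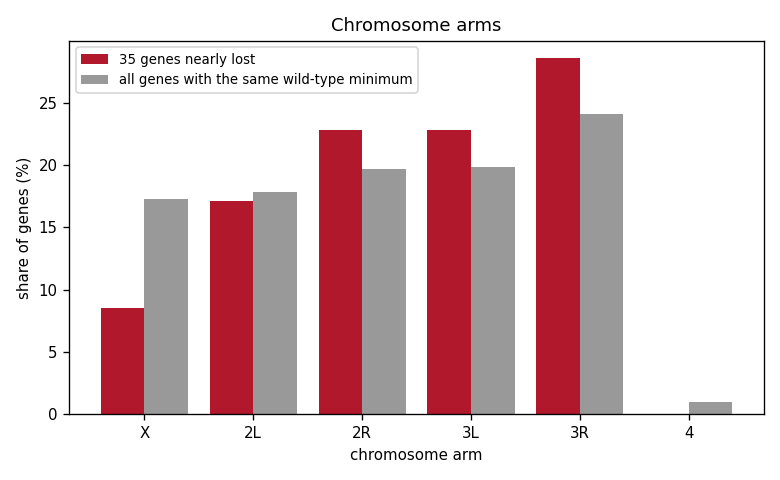
Share of the 35 genes (red, left bar of each pair) and of the annotated genes with a wild-type mean of at least 2 CPM (grey, right bar) on each chromosome arm, in percent. Arm 3R holds the most of both, with 28.6% and 24.1%, and X holds 8.57% against 17.3%.

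Near pairs were few, with 6 of the 35 genes within 20 kb of another one. *rost* and *CG13101* lie 1063 bases apart on 2L on the same strand, with *CG18662* annotated between them. *Sgs5bis* and *CG7606* lie 1478 bases apart on 3R, on either side of *Sgs5*. *CG11349* and *CG7465* are adjacent on 3L with 5187 bases between them, and *NT1* lies 20164 bases from *CG7465*, with 5 annotated genes between them. These gaps are from BDGP6, while the counts were made on BDGP5.

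The nearest tested gene on either side of each of the 35 was looked up in the same fit. Of 63 such neighbours outside the 35, 3 were called lower than wild type in both mutants (4.76%, against 11.8% of all genes tested) and 9 were called higher in both (14.3%, against 13.1%). The 3 were *alien* near *rost*, *Pli* near *lncRNA:CR43285* and *CG31075* near *CG31076*. *CG31075*, 517 bases from *CG31076* on the same strand, averaged 25.2 CPM in *nonstop* and 32.2 CPM in *sgf11* against 109 CPM in wild type. Its log2 fold change over wild type was -2.002 in *nonstop* (FDR = 6.68e-09) and -1.72 in *sgf11* (FDR = 3.81e-08), both from edgeR's quasi-likelihood test. *Sgs5*, between *Sgs5bis* and *CG7606*, had a log2 fold change of -4.40 in *nonstop* (FDR = 0.00874) and of -1.59 in *sgf11* (FDR = 0.219) by the same test. Only wild-type replicates 1 and 2 were high for *Sgs5*, with 80.5, 92.3, 2.07 and 2.69 CPM in wild type. It had 0, 0, 3.67 and 4.14 CPM in *nonstop* and 2.04, 0, 39.1 and 21.6 CPM in *sgf11*. The groups thus overlapped, and *nonstop* replicates 3 and 4 exceeded wild-type replicates 3 and 4.

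The gene models of the 35 were of ordinary size. They were set beside the 7918 genes with the same wild-type minimum that were found in the annotation. The median exon length was 1.97 kb for the 35 genes and 2.28 kb for those genes. The median gene length was 3.02 kb and 3.11 kb, and the median number of exon blocks was 4 in both. Protein-coding genes made up 33 of the 35, and the others were both long noncoding RNAs. Exons of 7 of the 35 overlap exons of another annotated gene, namely *CG9416*, *Jabba*, *CG34409*, *Hr3*, *stl*, *f* and *CG30377*.

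Genes of the ecdysone pathway other than *Hr3* also changed. The list held 17 names, and 14 matched a gene, *Hr3* among them. The names *br*, *Hr46* and *Kr-h1* matched none, so the regulators *br* and *Kr-h1* are not covered. Of 13 other ecdysone receptor and regulator genes tested, 7 fell in both mutants (*usp*, *Eip74EF*, *Eip75B*, *Eip78C*, *Hr4*, *Hr39* and *E23*) and 2 rose in both (*Hr38* and *ftz-f1*), where 11.8% of all genes fell and 13.1% rose in both. Over 20 alternative fits, the library size without scaling factors among them, 6 or 7 fell and 2 rose in both. *Eip78C*, a nuclear receptor that just missed the threshold for the 35, averaged 3.55 ± 1.56 CPM in *nonstop* and 8.65 ± 1.95 CPM in *sgf11* against 41.5 ± 6.72 CPM in wild type (SD, n = 4 libraries each). *ftz-f1*, which Hr3 is known to activate, was higher, with 106 ± 5.35 CPM in *nonstop* and 72.4 ± 10.3 CPM in *sgf11* against 46.7 ± 9.82 CPM in wild type (SD, n = 4 libraries each). The receptor gene *EcR* averaged 255 ± 18.5 CPM in *nonstop*, 249 ± 21.0 CPM in *sgf11* and 269 ± 38.0 CPM in wild type (SD, n = 4 libraries each) and was not called in either mutant. Of 5 other ecdysone-inducible or late larval genes tested, *ImpL2* fell in both mutants.

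Genes of the apical extracellular matrix were listed with *forked*. Of 8 others tested, 4 fell in both mutants (11.8% of all genes did), the zona pellucida domain genes *mey*, *neo*, *nyo* and *pio*. The list also held *trn*, which encodes no matrix protein. *mey* averaged 0.678 CPM in *nonstop* and 1.70 CPM in *sgf11* against 6.37 CPM in wild type. Of 26 chitin genes tested, *Cht11* fell in both mutants and 4 rose in both, *Cda5* and *Idgf6* most. These counts lie below the 11.8% of all genes that fell in both and near the 13.1% that rose in both. 

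*Fbp1* was listed with 7 other fat body genes, none of which fell in both mutants. For this list and the glial lists below, 11.8% of all genes fell and 13.1% rose in both. The 7 fat body genes summed to 15341 to 24503 CPM in *nonstop* and 11355 to 15958 CPM in *sgf11* against 2653 to 3536 CPM in wild type. Nearly all of it was *apolpp*, the lipophorin gene, which rose in both mutants. The larval serum protein genes *Lsp1alpha*, *Lsp1beta* and *Lsp2* rose in *sgf11*, with log2 fold changes over wild type of 1.16 to 1.37, while in *nonstop* they had -0.35 to -0.18 and did not pass the test. Each of these 3 also differed between *nonstop* and *sgf11* (log2 -1.66 for *Lsp1alpha*, -1.42 for *Lsp1beta* and -1.51 for *Lsp2*, with edgeR FDRs of 0.00895, 0.00244 and 0.00322). *Lsp1gamma* fell in *nonstop* (log2 -1.08, edgeR FDR = 0.00577) and had -0.41 in *sgf11*. Among glial lists, 4 of 9 perineurial and subperineurial genes fell in both mutants (*Lac*, *cold*, *Nrx-IV* and *apt*). Over the alternative fits 3 to 5 fell and 0 to 1 rose in both. *Tret1-1* of this list had a higher mean in both mutants, with 232 CPM in *nonstop* and 210 CPM in *sgf11* against 153 CPM in wild type. The list summed to 2998 to 4246 CPM in *nonstop* and 3513 to 4407 CPM in *sgf11* against 4388 to 4661 CPM in wild type. Of 7 cortex, astrocyte-like and ensheathing genes, 4 rose in both (2 to 4 over the alternative fits), *Gat* and *alrm* among them. Of 13 general glial genes 1 rose in both, *Eaat1*, and none fell in both, but over the alternative fits 0 to 3 rose and 0 to 3 fell, with 2 lower in both without TMM factors, 3 with DESeq2 and 1 without *nonstop* replicate 2 or 3 or *sgf11* replicate 2. The part of glial subtypes in the levels of the 35 genes was not tested.

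The other marker lists were counted in the same way, beside 11.8% of all genes lower and 13.1% higher in both mutants. A count of 1 in a list of 6 or 7 genes lies near these shares and is not read as a change of that tissue. Both mutants were higher for 5 of 9 neuronal genes, *nrv3* and *Appl* among them, and for *topi* of 2 testis genes tested. Both were lower for 3 of 8 neuroblast genes, with *tll* and *mira* among them, for *Ppn* and *crq* of 8 hemocyte genes, for *pio* of 6 tracheal genes, for *shg* of 7 epidermal genes and for *Sgs1* of the 7 salivary gland genes. The salivary gland count of 1 was different in 14 of the 20 alternative fits, with 0 to 2 genes, that of neuroblasts was 1 without wild-type replicate 1, and that of neurons was 3 without *sgf11* replicate 4 or without wild-type replicate 1, 2 or 4. The tracheal count of 1 was 0 to 1 over the alternative fits. In 6 lists with 40 genes tested (9 of photoreceptors and eye disc, 8 of muscle, 6 of ring gland, 1 of midgut, 5 antimicrobial and immune genes and 11 serine proteases), edgeR's quasi-likelihood test called 0 genes in both mutants in the same direction. At an unadjusted p under 0.05 in both there were 7, and DESeq2 called 1. Without wild-type replicate 1, the same edgeR test called 2 muscle genes and 1 serine protease higher in both, and without *nonstop* replicate 1 or wild-type replicate 4 it called 1 serine protease, with 0 to 2 serine proteases over the 20 alternative fits. Epidermal genes summed to 178 to 189 CPM in *nonstop* and 154 to 223 CPM in *sgf11* against 261 to 328 CPM in wild type. Most of this fall was *shg* alone, which averaged 91.4 CPM in *nonstop* and 94.0 CPM in *sgf11* against 182 CPM in wild type. Of the others, *grh* and *nub* had lower means in both mutants, *sha*, *y* and *vg* higher ones, and *ple* and *Ddc* were split. The sum is not read as a change of that tissue. The part of epidermal cells in the levels of *f* and the other genes was not tested.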

How the data were processed

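Nuclear RNA of enriched glial nuclei was measured by RNA-seq in 12 libraries, 4 for each of *nonstop*, *sgf11* and wild type, with the genotype taken from the sample labels. The deposited files hold whole read counts per gene for 15682 genes. Per the labels and the methods of the study, the authors used Trimmomatic 0.32 for trimming, TopHat2 2.0.13 with Bowtie2 2.2.4 for alignment to BDGP5, and HTSeq 0.6.1 in union mode, without regard to strand, for counting. Entries that name no gene held 96.1 to 96.7% of the counts of a library and were left out. The authors also deposited edgeR tables with their own fold changes and p-values for each mutant, which were not used.

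CPM were computed on the summed gene counts. The 35 genes and all gene lists were chosen with earlier results of these data known. The 9966 genes above 1 CPM in 4 or more libraries were fitted in R 4.3.3 with edgeR 4.0.16 (TMM normalization, quasi-likelihood test, 1 fit of all libraries, biological coefficient of variation 0.154), with Benjamini-Hochberg adjustment over all genes tested and an FDR threshold of 0.01. Log2 fold changes and their SE are those of the fit. A gene called in both mutants passed the threshold in both in the same direction. Counting intervals are 95% exact intervals, a group without counts was set to a floor of 3 counts, and both cover counting error only. Both describe the contrast with wild type that chose the genes, and neither is a test. In simulated data for *nonstop* against *sgf11*, the test found 69 of 100 genes changed 2-fold and 96 of 100 changed 4-fold, with 3 false calls among 9766 genes. The changed genes were drawn at random from all genes tested, at their mean over all libraries. These rates therefore do not describe those of the 35 genes that are low in both mutants. Of the gene IDs, 15002 matched a symbol in the name table given, and arms, gene order and lengths come from the BDGP6 annotation. Listed names that matched no symbol were left out, so several gene lists lack some of their genes.

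Values in every library are given for the 24 genes highest in wild type, for those called between the mutants, those without a count in a mutant and those within 20 kb of another, and *CG15404* was added after its values were seen. In each gene list, up to 2 genes called in both mutants at either end of the fold changes are named. *usp*, *Eip74EF*, *Eip75B*, *Hr39*, *E23*, *EcR*, *nyo*, *pio*, *Nrx-IV*, *apt*, *Tret1-1*, *Lsp1alpha*, *Lsp1beta*, *Lsp1gamma* and *Lsp2* were added after their values were seen. Alternatives were DESeq2 1.42.0, edgeR's exact test, other size factors, no filter on low counts, a fit of 2 genotypes, an FDR of 0.05, a replicate block, each library left out in turn and other thresholds for choosing the genes. Leaving out wild-type replicates 1 and 2 together was added after the data were seen.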

Additional observations from a re-analysis of the deposited data

Results flagged for a closer look

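In 105 groups of 4 libraries (35 genes in 3 genotypes), 9 had 1 library far from the others by Dixon's test, or 8.57%. Chance gives about 1 in 20 for normally distributed values, a rate that need not hold for groups with few counts. Of the 9, 6 were in *sgf11*, 4 of them in replicate 1. Among all genes with the same wild-type minimum, 46.1% had their highest *sgf11* level in replicate 1. In *sgf11* replicate 1, *Pcl* had 137 CPM, *Fbp1* 13.7 CPM, *CG14257* 1.02 CPM and *lncRNA:marge* 1.32 CPM, each above the other 3 libraries. In *sgf11*, *CG34409* stood apart in replicate 2 with 4.82 CPM and *Sgs5bis* in replicate 3 with 1.01 CPM. The single count of *CG32237* in *nonstop* (replicate 1, 0.115 CPM) also met this test, beside 0 in the other 3 libraries. Within wild type, replicate 4 stood apart for *CG7465* with 20.15 CPM and for *CG32237* with 4.80 CPM.

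The effect relative to wild type differed between the mutants for *CG9416* and *CG5002*, tested as *nonstop* against *sgf11* by edgeR's quasi-likelihood test. The log2 fold change was -2.74 for *CG9416* and -3.02 for *CG5002*, and the 4 *nonstop* libraries lay below the 4 *sgf11* libraries for both.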

How the results depend on the processing

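The number of genes chosen depended on the fraction taken as the limit, with 61 genes at 0.25 of wild type and 10 at 0.1, of which 34 and 5 lay on chromosome 3, against 35 and 18 at 0.2. With each library left out in turn, 31 to 41 genes were chosen, 15 to 21 of them on chromosome 3, and 21 of the 35 were chosen every time. CPM on TMM-scaled library sizes kept 31, without *CG34409*, *Jhbp2*, *NT1* and *Spn100A*. *CG9416* and *CG5002* were called between the mutants under all 20 alternatives, with each library left out too (2 to 2 genes). *CG31076* was called too with DESeq2 (-1.20 on the log2 scale), with edgeR's exact test (-1.21) and without the filter on low counts (-1.23), and at an FDR of 0.05 *CG31076* and *CG32237* were added, which gave 4 genes. Over all genes, calls between the mutants numbered 210, against 386 at an FDR of 0.05, 343 with edgeR's exact test, 335 with DESeq2 and 122 to 221 with each library left out, with 122 without *sgf11* replicate 3 and 135 without *nonstop* replicate 4. Genes called lower than wild type numbered 1339 to 1661 in *nonstop* and 1122 to 1520 in *sgf11* with each library left out, against 1699 and 1403, and the calls lower in both within the lists 19 to 23, against 24. Without TMM factors, the median log2 fold change shifted by -0.13 in *nonstop* and by -0.05 in *sgf11*. The share of calls that were higher in *nonstop* was then 39.6%, against 52.3% with TMM. Same-numbered libraries shared only a number, with correlations of their deviations from -0.0764 to 0.122. With the replicate number as a block, 2 of the 35 genes and 183 of all genes were called between the mutants, and 1668 and 1404 genes were called lower than wild type in *nonstop* and *sgf11*. The cause of these changes was not tested. Depth limits the genes under 10 CPM, of which a mutant library often held no more than a few counts.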

Other observations

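Other ways of setting the thresholds brought in other genes. With the median in place of the mean, 30 of the 35 genes were kept and 9 came in, namely *CG10918*, *CG17036*, *CG34355*, *CG4586*, *Cyp12c1*, *Eip78C*, *Sgs1*, *St2* and *mey*. *CG32237*, *CG7465*, *Jhbp2*, *Spn100A* and *lncRNA:CR43285* dropped out. With a wild-type minimum of 1 CPM, 9 further genes came in, namely *Act79B*, *CG12374*, *CG31698*, *CG33333*, *Crys*, *Drsl5*, *Jhbp14*, *Prat2* and *Vajk1*. *Act79B*, a muscle actin gene, came in through 1 library, with 0, 0, 0.253 and 0.352 CPM in *nonstop*, 0, 0, 0 and 0.136 CPM in *sgf11* and 5.58 CPM in wild-type replicate 1 against 0 in the other 3 wild-type libraries. Without *sgf11* replicate 3, the glue genes *Sgs3*, *Sgs5* and *Sgs7* came in.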
